A study of Mus musculus with 16 samples.

Results

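The mitochondrial tRNAs for asparagine, cysteine and tyrosine (mt-tRNA-Asn, mt-tRNA-Cys and mt-tRNA-Tyr) were taken by name from the deposited count tables, where they are listed as mito_tRNA-Asn-GTT-1, mito_tRNA-Cys-GCA-1 and mito_tRNA-Tyr-GTA-1. They are 3 of the 22 mitochondrial tRNAs and 3 of 819 rows in the table of mouse embryonic fibroblasts (MEFs), and 3 of 821 rows in the table of mouse hearts. All 3 passed the filter on low counts in both tables. The study asked how correcting a pathogenic mutation in the neighbouring mt-tRNA-Ala gene by base editing affects tRNAs, and sequenced tRNA from 16 libraries. The MEF libraries came from 3 lines labelled MEF_Cl_1, MEF_Cl_2 and MEF_Cl_3 and 1 line labelled MEF_Ctrl_1, each with 2 libraries from separate cell passages. The hearts came from 8 mice of a model named m.5024T, 4 given AAV9-DdCBE (mice 17 and 18 labelled 10X, mouse 25 labelled 5X and mouse 26 labelled 2X) and 4 given AAV9-GFP (mice 5 and 6 labelled 5X, mice 14 and 19 labelled 3X). AAV9 is an adeno-associated virus used to reach the heart, DdCBE is a deaminase-based editor that converts cytosine in double-stranded mitochondrial DNA, and GFP is a fluorescent protein with no editing activity. All hearts therefore shared the mouse model and a viral vector. The labels do not say what Ctrl, Cl or the X numbers stand for, whether the Cl lines are clones, or the age, sex or strain of the mice, and none of these was assumed. With 1 control line, a difference between the Cl lines and MEF_Ctrl_1 cannot be told apart from a peculiarity of that line, and p-values over libraries measure the spread between passages.

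The 3 genes lie side by side in mitochondrial DNA. In the RefSeq gene order the run reads ND2, TrnW (tRNA-Trp), TrnA (tRNA-Ala), TrnN (tRNA-Asn), TrnC (tRNA-Cys), TrnY (tRNA-Tyr) and COX1. The origin from which the light strand of mitochondrial DNA is copied lies between the Asn and Cys genes, and Ala, Asn, Cys and Tyr are read in the direction opposite to Trp, from the light-strand promoter, as parts of 1 long transcript from which single tRNAs are cut. Each tRNA carries its amino acid to the mitochondrial ribosome, which makes the core subunits of the respiratory chain: mt-tRNA-Asn is charged by NARS2, mt-tRNA-Cys by CARS2 and mt-tRNA-Tyr by YARS2. Asn and Tyr carry queuosine at the first anticodon position, Asn carries t6A beside the anticodon, and Cys and Tyr carry i6A or its thiolated form there. Some modified bases of tRNAs can stop a reverse transcriptase. The library method used here, mim-tRNAseq, is built around an enzyme that reads through many of those. Whether the bases named above did so in these libraries was not measured.

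Libraries held 1473330 to 4375975 counts in MEFs and 1540287 to 3037178 counts in hearts. Mitochondrial tRNAs made up 2.14% to 3.01% of each Cl library, 3.41% and 3.74% of the MEF_Ctrl_1 libraries, and 37.4% to 59.9% of each heart library, where mouse 17 was highest. Each tRNA is therefore given on 2 scales: its counts for every 1000000 tRNA counts of the library after TMM scaling (CPM), and its percentage of the mitochondrial tRNA counts of that library. A lower CPM in bulk RNA can reflect fewer mitochondria or cells of a type or less RNA in each, which cannot be told apart. The members had 705 to 9505 counts per MEF library and 7558 to 76867 per heart, so that the 95% Wilson interval of a share reached 1.95% to 7.32% of its value to either side in MEFs and 0.692% to 2.24% in hearts. These intervals cover counting error only.

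In MEFs the 3 neighbours were not called alike, which is not itself a test of a difference between them. Against MEF_Ctrl_1, mt-tRNA-Tyr was lower on the CPM scale for the Cl lines on average, while mt-tRNA-Asn and mt-tRNA-Cys did not pass the test. In a fit to the 22 mitochondrial rows alone, mt-tRNA-Asn was 1.90-fold and mt-tRNA-Cys 1.36-fold higher in the Cl lines, and the difference of mt-tRNA-Tyr turned positive without passing the test. Both of these calls were lost when certain single libraries were left out and when the passages of each line were added up. No member's share passed the permutation test after adjustment. With 6 libraries against 2 the smallest p of that test is 0.0357 before adjustment over the 22 tRNAs, so this miss decides little.

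mt-tRNA-Asn reads the asparagine codons of the mitochondrial messages. Its CPM was 262 and 510 in MEF_Cl_1, 409 and 527 in MEF_Cl_2 and 600 and 474 in MEF_Cl_3, against 323 and 373 in MEF_Ctrl_1. All Cl libraries except the first of MEF_Cl_1 lay above both MEF_Ctrl_1 libraries, and that one lay below them. The spread between the passages of MEF_Cl_1 (1.95-fold) was wider than in the other lines (1.15-fold to 1.29-fold). The log2 difference of the mean of the Cl lines from MEF_Ctrl_1 was 0.40 (SE 0.26, adjusted p = 0.242, edgeR's quasi-likelihood test), and in single lines it was 0.14 in MEF_Cl_1, 0.42 in MEF_Cl_2 and 0.62 in MEF_Cl_3, none past the threshold of 0.05. Averaged over the Cl lines, 97 of 201 transcripts (48.3%) were called at that threshold (22.9% of the 201 as higher), and 33.8%, 46.3% and 50.7% were called in MEF_Cl_1, MEF_Cl_2 and MEF_Cl_3. Without the first MEF_Ctrl_1 library 59 transcripts passed for the average. Without the first MEF_Cl_1 library, where 48.8% of transcripts were called, the difference of mt-tRNA-Asn was 0.53 and passed (adjusted p = 0.0275). It also passed without any filter on low counts (0.40, adjusted p = 0.0296), where 28.5% were called.

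As a share of mitochondrial tRNA counts mt-tRNA-Asn held 1.19% and 1.71% in MEF_Cl_1, 1.70% and 2.02% in MEF_Cl_2 and 2.59% and 1.92% in MEF_Cl_3, against 0.808% and 1.05% in MEF_Ctrl_1. All 6 Cl libraries lay above both MEF_Ctrl_1 libraries. It ranked 15 to 20 among the 22 mitochondrial tRNAs by count in the Cl libraries and 21 in both MEF_Ctrl_1 libraries. The mean share was 1.85% ± 0.459 in the Cl libraries (SD, n = 6) and 0.930% ± 0.174 in the MEF_Ctrl_1 libraries (SD, n = 2). An exact two-sided permutation test gave p = 0.0357, the smallest p that 6 against 2 allows, and adjusted p = 0.112 over the 22 tRNAs. The test shuffled libraries as if independent, although each line gave 2 passages, and with whole lines only 4 splits exist. This limit holds for every permutation test of MEF shares and ratios here. Shares of 10 of the 22 (45.5%) did not overlap between these groups, and 0 of 22 passed the exact permutation test after adjustment (7 at an unadjusted p under 0.05). Shares are parts of a fixed total, so a lower share of any tRNA raises those of others. The share of mt-tRNA-Phe averaged 9.72% in the Cl libraries and 15.2% in MEF_Ctrl_1, and its part in the shares of the members was not tested. In the edgeR fit to the 22 mitochondrial rows alone, where 9 of 22 (40.9%) passed and 6 of 22 (27.3%) were higher, mt-tRNA-Asn was 0.93 higher on the log2 scale in the mean of the Cl lines (SE 0.20, adjusted p = 0.00926). The call was lost without the first MEF_Ctrl_1 library (0.77, adjusted p = 0.0644, with 5 of 22 called) and after the counts of both passages of a line were added up (0.98, adjusted p = 0.195), which leaves 3 lines against 1. By line this fit gave 0.60 in MEF_Cl_1 (adjusted p = 0.0828), 0.95 in MEF_Cl_2 (adjusted p = 0.0370) and 1.24 in MEF_Cl_3 (adjusted p = 0.00493), where 31.8%, 9.09% and 45.5% of the 22 rows were called.

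mt-tRNA-Cys, the neighbour of Asn across the light-strand origin, had, of the 3 members, the difference nearest 0 on the CPM scale for the Cl lines on average. Its CPM was 299 and 453 in MEF_Cl_1, 352 and 464 in MEF_Cl_2 and 504 and 503 in MEF_Cl_3, against 505 and 409 in MEF_Ctrl_1, and the groups overlapped. The log2 difference was -0.10 for the mean of the Cl lines (SE 0.19, adjusted p = 0.688). Single lines gave -0.28 in MEF_Cl_1, -0.17 in MEF_Cl_2 and 0.14 in MEF_Cl_3, none past the threshold.

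Within the mitochondrial counts the share of mt-tRNA-Cys was 1.36% and 1.52% in MEF_Cl_1, 1.47% and 1.77% in MEF_Cl_2 and 2.17% and 2.04% in MEF_Cl_3, against 1.26% and 1.15% in MEF_Ctrl_1. The groups did not overlap, but the lowest Cl library stood close to the higher MEF_Ctrl_1 library. Mean shares were 1.72% ± 0.330 in the Cl libraries (SD, n = 6) and 1.21% ± 0.0762 in the MEF_Ctrl_1 libraries (SD, n = 2), with p = 0.0714 in the exact permutation test and adjusted p = 0.157. In the fit to the mitochondrial rows alone the log2 difference was 0.45 (SE 0.12, adjusted p = 0.0185). The adjusted p was 0.0669 without the first MEF_Cl_3 library, 0.0526 without the second MEF_Cl_1 library, 0.0631 without the second MEF_Ctrl_1 library and 0.350 after the passages of each line were added up. By line the difference was 0.21 in MEF_Cl_1 (adjusted p = 0.315), 0.37 in MEF_Cl_2 (adjusted p = 0.117) and 0.76 in MEF_Cl_3 (adjusted p = 0.00494).

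mt-tRNA-Tyr, whose gene lies next to COX1 and which was the most abundant of the 3 by count, fell in the Cl lines on the CPM scale. Its CPM was 1569 and 1717 in MEF_Cl_1, 1857 and 1960 in MEF_Cl_2 and 1663 and 1840 in MEF_Cl_3, against 2363 and 2257 in MEF_Ctrl_1. All 6 Cl libraries lay below both MEF_Ctrl_1 libraries, as groups did not overlap for 44.3% of the 201 transcripts. The log2 difference was -0.39 for the mean of the Cl lines (SE 0.08, adjusted p = 0.00453), where 25.4% of transcripts were called lower. It was -0.49 in MEF_Cl_1 (SE 0.09, adjusted p = 0.00596), -0.28 in MEF_Cl_2 (SE 0.09, adjusted p = 0.0475) and -0.40 in MEF_Cl_3 (SE 0.09, adjusted p = 0.0110), beside 18.9%, 20.4% and 24.4% of transcripts called lower in those lines. The median difference of the 22 mitochondrial tRNAs was -0.68 and that of all 201 transcripts was -0.00, so the fall of mt-tRNA-Tyr was smaller than the median of its kind. With counts summed per anticodon the difference was -0.26 (adjusted p = 0.0839). With the passages of each line added up it was -0.39 (adjusted p = 0.398), where 4.07% of transcripts were called. The call in MEF_Cl_2 was lost in 9 of 16 alternative settings and the sign turned in a further 2.

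On the mitochondrial scale the direction turned. mt-tRNA-Tyr held 7.13% and 5.76% of mitochondrial tRNA counts in MEF_Cl_1, 7.73% and 7.50% in MEF_Cl_2 and 7.17% and 7.45% in MEF_Cl_3, against 5.90% and 6.37% in MEF_Ctrl_1. All Cl libraries except the second of MEF_Cl_1 lay above both MEF_Ctrl_1 libraries. Mean shares of 7.13% ± 0.702 in the Cl libraries (SD, n = 6) and 6.14% ± 0.331 in the MEF_Ctrl_1 libraries (SD, n = 2) gave p = 0.107 in the exact permutation test and adjusted p = 0.214. The fit to the mitochondrial rows alone gave a log2 difference of 0.17 (SE 0.11, adjusted p = 0.239).

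**Figure D1:**
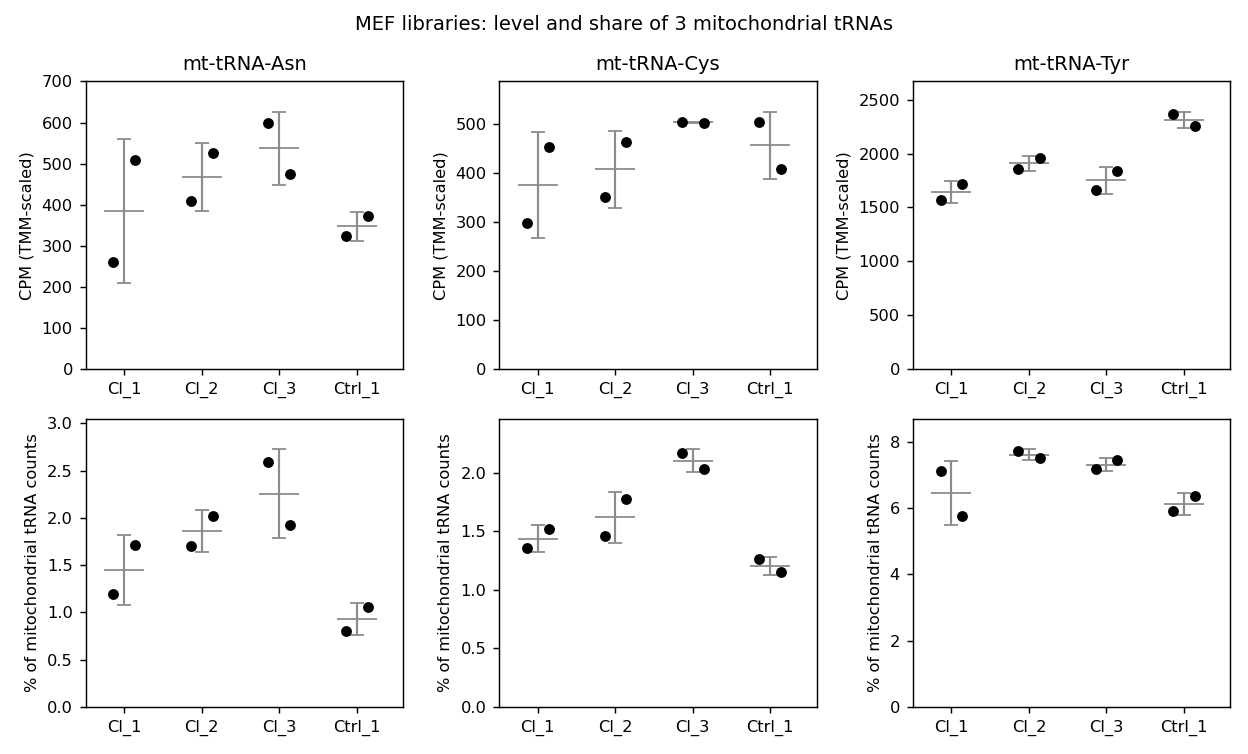
CPM (top row) and percentage of mitochondrial tRNA counts (bottom row) of mt-tRNA-Asn, mt-tRNA-Cys and mt-tRNA-Tyr in the MEF libraries by line; points are libraries, the grey bar is the mean and the error bar the SD of 2 libraries. In the CPM panel of mt-tRNA-Tyr the Cl libraries lie at 1569 to 1960, below the MEF_Ctrl_1 libraries at 2257 and 2363, while in the share panels of mt-tRNA-Asn and mt-tRNA-Cys all Cl libraries lie above MEF_Ctrl_1.

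The Cl lines were not shown to differ from each other in any member. The F test over the 3 lines gave adjusted p = 0.468 for mt-tRNA-Asn, 0.361 for mt-tRNA-Cys and 0.253 for mt-tRNA-Tyr, where 24.4% of transcripts passed. As shares, which that test did not use, the order of the line means was alike for Asn and Cys, and this order was not tested. mt-tRNA-Asn averaged 1.45% in MEF_Cl_1, 1.86% in MEF_Cl_2 and 2.25% in MEF_Cl_3, and mt-tRNA-Cys averaged 1.44%, 1.62% and 2.10% in the same lines. mt-tRNA-Tyr averaged 6.45%, 7.61% and 7.31%, with MEF_Cl_2 highest.

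Ratios of counts within a library need no scaling. The ratio of mt-tRNA-Asn to mt-tRNA-Tyr was 0.167 and 0.297 in MEF_Cl_1, 0.220 and 0.269 in MEF_Cl_2 and 0.361 and 0.258 in MEF_Cl_3, against 0.137 and 0.165 in MEF_Ctrl_1. The groups did not overlap, although the lowest Cl library and the higher MEF_Ctrl_1 library were nearly level. The mean log2 ratio was 0.76 higher in the Cl libraries (p = 0.0357 in an exact two-sided permutation test, adjusted p = 0.107 over the 231 pairs of mitochondrial tRNAs). Of those pairs 46.3% did not overlap between the groups and 0 of 231 passed after adjustment (77 at an unadjusted p under 0.05), while the smallest p that the design allows is 0.0357.

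The ratio of mt-tRNA-Asn to mt-tRNA-Cys was 0.875 to 1.19 in the 6 Cl libraries, against 0.640 and 0.913 in MEF_Ctrl_1, with a log2 difference of 0.48 (exact permutation p = 0.0714, adjusted p = 0.162). The ratio of mt-tRNA-Cys to mt-tRNA-Tyr was 0.190 to 0.303 in the Cl libraries, against 0.214 and 0.181 in MEF_Ctrl_1, with a log2 difference of 0.28 (exact permutation p = 0.286, adjusted p = 0.412). The groups overlapped for both ratios. Of the counts of the 3 tRNAs together, mt-tRNA-Tyr made up 60.1% to 73.7% in the Cl libraries, against 74.0% and 74.3% in MEF_Ctrl_1, and mt-tRNA-Asn made up 12.3% to 21.7% in the Cl libraries, against 10.1% and 12.3% in MEF_Ctrl_1. Together the 3 tRNAs held 8.99% to 11.9% of the mitochondrial total in the Cl libraries and 7.97% and 8.58% of it in MEF_Ctrl_1.

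**Figure D2:**
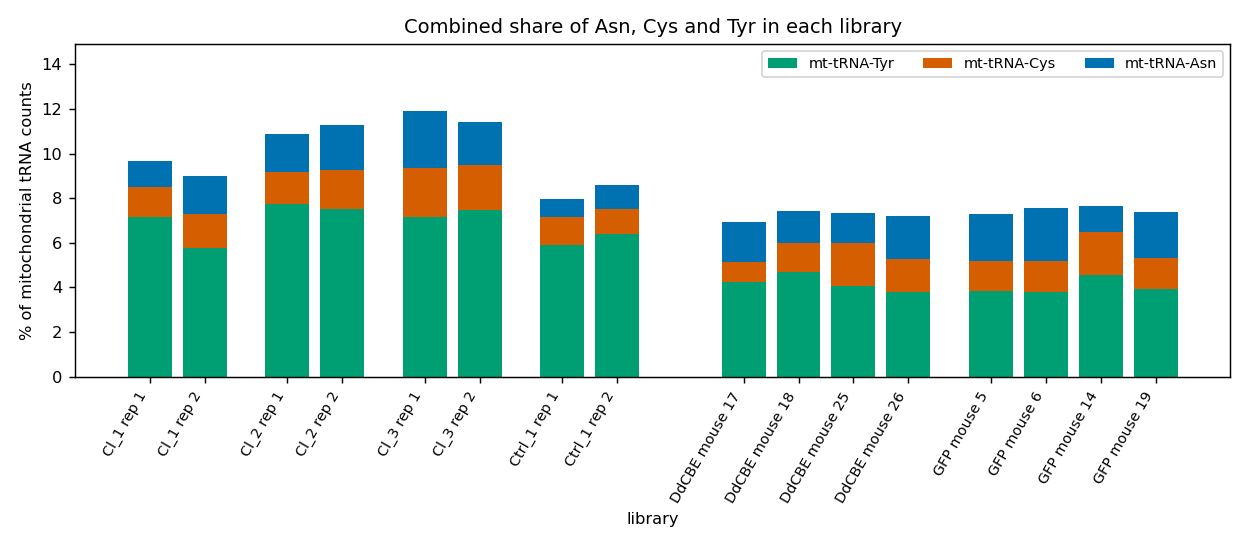
Stacked percentages of mitochondrial tRNA counts held by mt-tRNA-Tyr (bottom), mt-tRNA-Cys (middle) and mt-tRNA-Asn (top) in each of the 16 libraries. The 3 together hold 8.99% to 11.9% in the Cl libraries and 7.97% and 8.58% in the MEF_Ctrl_1 libraries, and stay between 6.94% and 7.66% in the 8 hearts.

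The other genes of the run were measured beside the 3 members. mt-tRNA-Ala, the tRNA of the gene whose correction the study asked about, was lower in the Cl lines on average by both measures. Its log2 difference was -1.68 in the fit to all transcripts (SE 0.16, adjusted p = 0.000195) and -1.12 in the fit to mitochondrial rows (SE 0.14, adjusted p = 0.000747). mt-tRNA-Trp, which is read from the other strand, was lower on the CPM scale (-0.87, SE 0.16, adjusted p = 0.00387) and did not pass in the fit to mitochondrial rows (-0.31, SE 0.13, adjusted p = 0.0795). The ratio of mt-tRNA-Asn to mt-tRNA-Ala was 1.74 to 4.73 in the Cl libraries, against 0.550 and 0.818 in MEF_Ctrl_1, so that Asn outnumbered Ala in all 6 Cl libraries and in neither MEF_Ctrl_1 library. For mt-tRNA-Cys the ratio to Ala was 1.50 to 4.83 in the Cl libraries, against 0.859 and 0.896 in MEF_Ctrl_1. For mt-tRNA-Tyr it was 6.82 to 17.7 in the Cl libraries, against 4.02 and 4.95 in MEF_Ctrl_1. In all 3 ratios the groups did not overlap, as for 46.3% of the 231 pairs, and the exact permutation test gave p = 0.0357 for each (adjusted p = 0.107).

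Set among all 22 mitochondrial tRNAs, mt-tRNA-Asn had the 2nd highest log2 difference averaged over the Cl lines, mt-tRNA-Cys the 6th and mt-tRNA-Tyr the 8th. The 8 tRNAs read from the light-strand promoter (Ala, Asn, Cys, Tyr, Gln, Glu, Pro and Ser-TGA) had a median difference of -0.01, with 0 called higher and 2 called lower, Ala and Tyr. The other 14 had a median of -0.74, with 0 higher and 11 lower. In the fit to mitochondrial rows alone the 8 had a median of 0.53, with 6 higher (Asn, Cys, Gln, Glu, Pro and Ser-TGA) and 1 lower (Ala), and the other 14 a median of -0.19, with 0 higher and 2 lower. mt-tRNA-Tyr was thus the one light-strand tRNA that the second fit did not call.

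Grouped by modification, the members sat in lists with mixed changes. Of the 4 tRNAs with queuosine (Asn, Asp, His and Tyr), 0 were called higher and 3 lower on the CPM scale (median -0.53), and 1 was called higher, Asn, in the fit to mitochondrial rows. Of the 5 with t6A (Asn, Ile, Lys, Ser-GCT and Thr), 0 were higher and 2 lower (median -0.72), and again 1 was higher in the second fit, which was Asn. Of the 5 with i6A or its thiolated form (Cys, Phe, Ser-TGA, Trp and Tyr), 0 were higher and 3 lower (median -0.39), and in the second fit 2 were higher and 1 lower. Over all 22 the counts were 0 higher and 13 lower on the CPM scale, and 6 higher and 3 lower in the second fit.

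**Figure D3:**
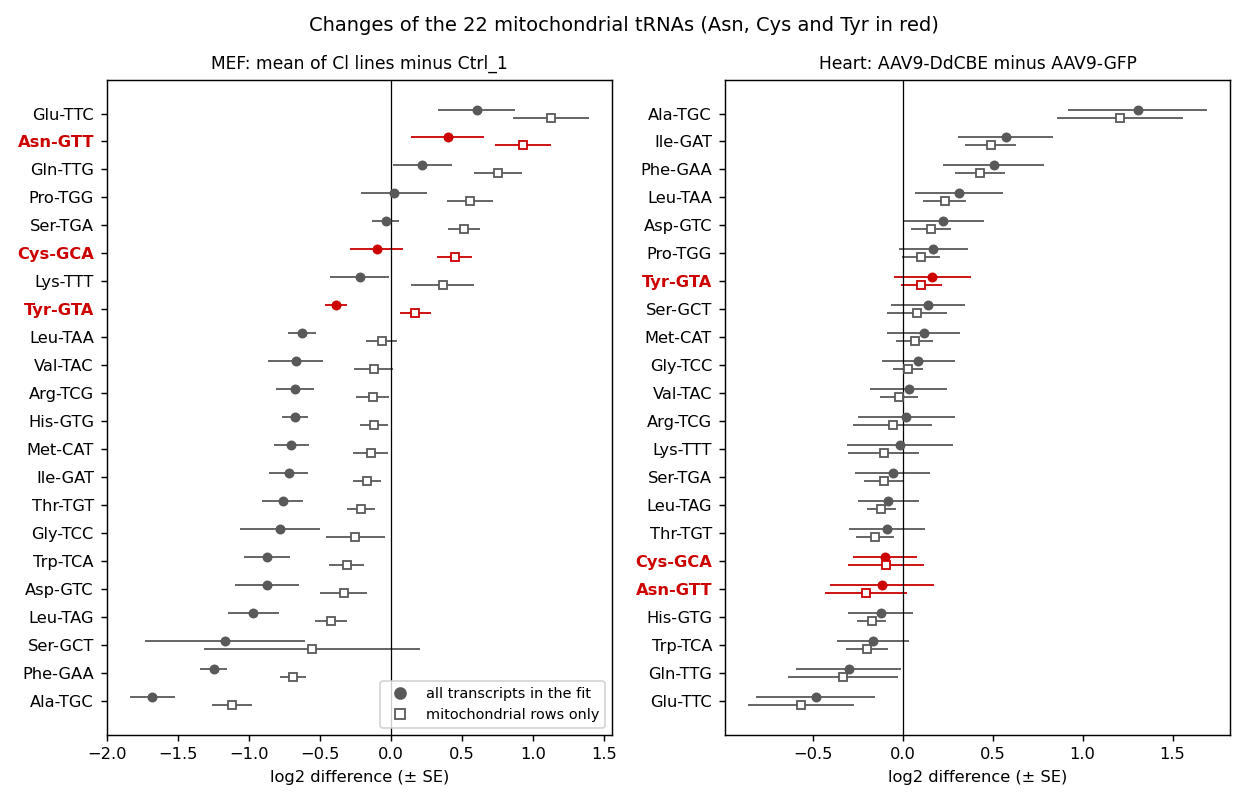
Log2 differences with SE of the 22 mitochondrial tRNAs for the mean of the Cl lines minus MEF_Ctrl_1 (left) and AAV9-DdCBE minus AAV9-GFP hearts (right); filled circles are the fit to all transcripts and open squares the fit to mitochondrial rows only, with Asn, Cys and Tyr in red. On the left the squares lie to the right of the circles, at 0.93, 0.45 and 0.17 for Asn, Cys and Tyr against 0.40, -0.10 and -0.39 for the circles, and on the right all 3 members lie near 0.

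The nuclear-encoded tRNAs for the same amino acids, which serve cytosolic ribosomes and share no gene or promoter with the mitochondrial ones, were summed over their rows for comparison. tRNA-Asn-GTT averaged 41227 ± 2051 CPM in the Cl libraries (SD, n = 6) and 35919 ± 215 CPM in the MEF_Ctrl_1 libraries (SD, n = 2), a log2 difference of 0.20 (SE 0.07, adjusted p = 0.0522 by edgeR's quasi-likelihood test). The difference of tRNA-Cys-GCA was 0.07 (SE 0.07, adjusted p = 0.473), with 31742 ± 2604 CPM in the Cl libraries and 30236 ± 1189 CPM in MEF_Ctrl_1. For tRNA-Tyr-GTA it was 0.00 (SE 0.11, adjusted p = 0.994), with 40337 ± 4732 CPM in the Cl libraries and 40252 ± 315 CPM in MEF_Ctrl_1. None of the 3 passed the threshold, in a fit where 30 of 70 anticodons (42.9%) did.

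In hearts none of the 3 members differed between AAV9-DdCBE and AAV9-GFP beyond the spread between mice. Over all transcripts 0 of 180 (0.0%) passed in edgeR's quasi-likelihood test, 35 of 180 (19.4%) had an unadjusted p under 0.05, and DESeq2 called 27 of 180 (15.0%), among them no member. The quasi-likelihood count was 19 without mouse 25 and 31 without mouse 26, again with no member. Individual hearts differed more than the treatments did, and they differed in which of the 3 tRNAs was high.

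mt-tRNA-Asn had 11327, 5583, 4961 and 7569 CPM in AAV9-DdCBE hearts of mice 17, 18, 25 and 26, against 8078, 9257, 4872 and 9690 CPM in AAV9-GFP hearts of mice 5, 6, 14 and 19. The highest heart, mouse 17, and the second lowest, mouse 25, had the same treatment. Means were 7360 ± 2869 in AAV9-DdCBE hearts and 7974 ± 2177 in AAV9-GFP hearts (SD, n = 4 each), with a log2 difference of -0.12 (SE 0.29, adjusted p = 0.767). Its share of mitochondrial tRNA counts was 1.79%, 1.42%, 1.35% and 1.92% in AAV9-DdCBE hearts, against 2.12%, 2.39%, 1.15% and 2.05% in AAV9-GFP hearts, in the same order of mice. The AAV9-GFP hearts other than mouse 14 lay above every AAV9-DdCBE heart, and mouse 14 lay below them all. The exact permutation test of the shares gave p = 0.343 (adjusted p = 0.629). With 4 hearts against 4 the smallest p of that test is 0.0286 before adjustment, so a miss after adjustment decides little. The same limit applies to every permutation test of heart shares and ratios here.

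mt-tRNA-Cys had 5886, 5114.5, 7061 and 5828 CPM in AAV9-DdCBE hearts, against 5212, 5420, 8243 and 6686 CPM in AAV9-GFP hearts. Mice 25 and 14, the lowest pair for mt-tRNA-Asn, were the highest pair for mt-tRNA-Cys. Means of 5972 ± 806 in AAV9-DdCBE hearts and 6390 ± 1396 in AAV9-GFP hearts (SD, n = 4 each) gave a log2 difference of -0.10 (SE 0.18, adjusted p = 0.707). As a share it held 0.929%, 1.30%, 1.92% and 1.48% in AAV9-DdCBE hearts, against 1.37%, 1.40%, 1.95% and 1.41% in AAV9-GFP hearts (exact permutation p = 0.657, adjusted p = 0.761). The 3 AAV9-GFP hearts other than mouse 14 lay within 1.37% to 1.41%, a narrower band than the AAV9-DdCBE hearts.

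mt-tRNA-Tyr had 26764, 18477, 14936 and 14989 CPM in AAV9-DdCBE hearts, against 14585, 14631, 19239 and 18544 CPM in AAV9-GFP hearts. Mouse 17, whose mitochondrial counts were 59.9% of the library, stood above all others on this scale and did not on the mitochondrial one. Means of 18791 ± 5567 in AAV9-DdCBE hearts and 16749.5 ± 2489.5 in AAV9-GFP hearts (SD, n = 4 each) gave a log2 difference of 0.17 (SE 0.22, adjusted p = 0.612), which was -0.05 without mouse 17. Shares were 4.23%, 4.70%, 4.06% and 3.81% in AAV9-DdCBE hearts, against 3.83%, 3.78%, 4.56% and 3.92% in AAV9-GFP hearts (exact permutation p = 0.514, adjusted p = 0.754). The treatments overlapped for all 3 members on both scales; groups did not overlap for 7.78% of transcripts by CPM and for 1 of 22 mitochondrial tRNAs (4.55%) by share.

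**Figure D4:**
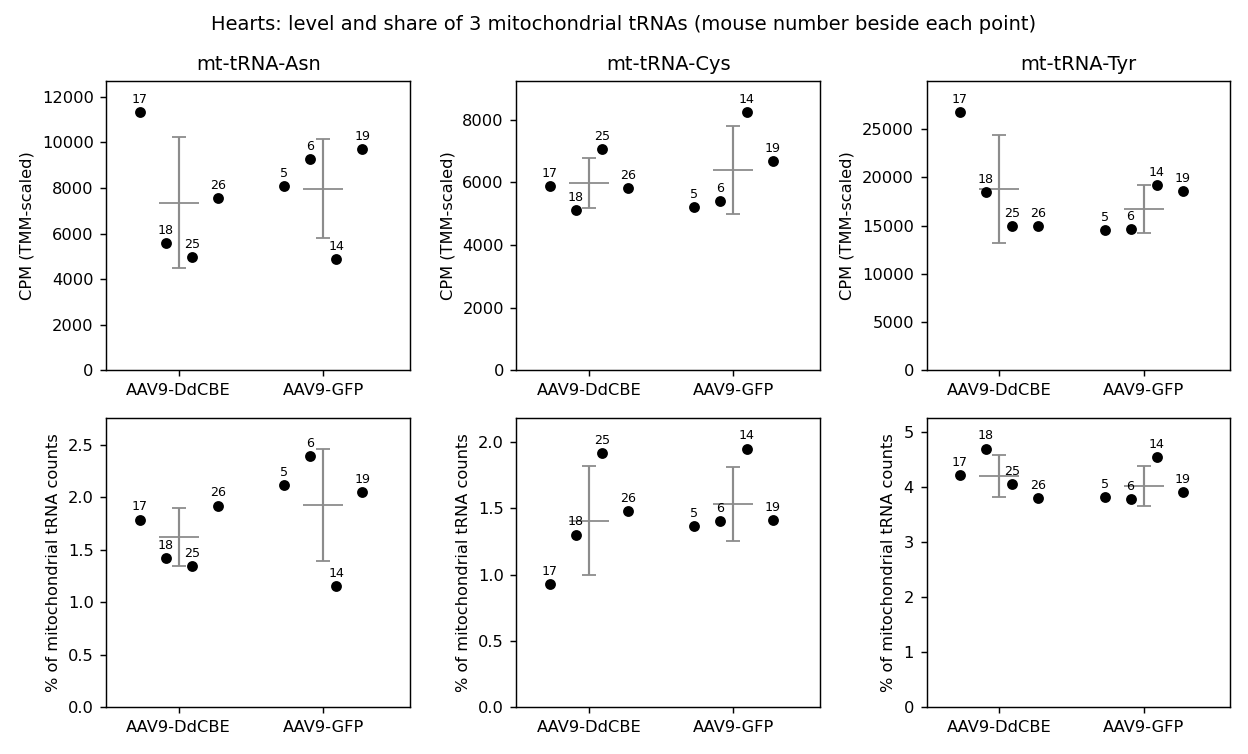
CPM (top row) and percentage of mitochondrial tRNA counts (bottom row) of the 3 tRNAs in AAV9-DdCBE and AAV9-GFP hearts; points are hearts with the mouse number, the grey bar is the mean and the error bar the SD of 4 hearts. The groups overlap in every panel, and mice 25 and 14 are low for mt-tRNA-Asn and high for mt-tRNA-Cys.

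The fit to mitochondrial rows alone gave log2 differences of -0.20 for mt-tRNA-Asn (SE 0.23, adjusted p = 0.575), -0.09 for mt-tRNA-Cys (SE 0.21, adjusted p = 0.770) and 0.11 for mt-tRNA-Tyr (SE 0.11, adjusted p = 0.575), and 0 of 22 passed by edgeR (3 at an unadjusted p under 0.05). Leaving out mouse 14 gave 4 calls and leaving out mouse 26 gave 2, with no member among them. The signs of Asn and Cys are not settled: both were positive when scaled on nuclear tRNA counts (0.19 and 0.13) and negative in the fit to all transcripts. Median log2 differences were -0.10 over the 180 transcripts and 0.03 over the 22 mitochondrial tRNAs.

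The 10X hearts of mice 17 and 18 were also set against the 4 AAV9-GFP hearts, a split made with earlier results of these data known. Here 93 of 180 transcripts (51.7%) passed and no member did. The log2 difference was 0.08 for mt-tRNA-Asn (SE 0.33, adjusted p = 0.828), -0.22 for mt-tRNA-Cys (SE 0.21, adjusted p = 0.387) and 0.43 for mt-tRNA-Tyr (SE 0.21, adjusted p = 0.110). mt-tRNA-Tyr was called higher when scaled on nuclear tRNA counts (0.88, adjusted p = 0.0345), by DESeq2 (0.63, adjusted p = 0.0244), without a filter on low counts (0.66, adjusted p = 0.0279), with the filter set by X label (0.63, adjusted p = 0.0444) and without mouse 18 (0.68, adjusted p = 0.0342). In the same order 36.7%, 41.7%, 26.6%, 35.3% and 60.2% of the transcripts tested were called under these settings. Without mouse 17 its difference was 0.14, and in the fit to mitochondrial rows alone, where 9.09% were called, it was 0.23 (adjusted p = 0.254). Mitochondrial tRNAs made up 59.9% and 44.5% of counts in these hearts, against 37.4% to 43.3% in AAV9-GFP hearts, and the part of that difference in the result was not tested.

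Ratios between the members overlapped between the treatments. The ratio of mt-tRNA-Asn to mt-tRNA-Cys was 1.92, 1.09, 0.703 and 1.30 in AAV9-DdCBE hearts of mice 17, 18, 25 and 26, against 1.55, 1.71, 0.591 and 1.45 in AAV9-GFP hearts of mice 5, 6, 14 and 19. Mice 25 and 14 were the 2 hearts in which Cys outnumbered Asn. The mean log2 ratio differed by -0.06 (exact permutation p = 0.886, adjusted p = 0.930). For Asn over Tyr the ratio was 0.302 to 0.505 in AAV9-DdCBE hearts and 0.253 to 0.633 in AAV9-GFP hearts (log2 difference -0.28, exact permutation p = 0.429, adjusted p = 0.707). For Cys over Tyr it was 0.220 to 0.473 in AAV9-DdCBE hearts and 0.357 to 0.428 in AAV9-GFP hearts (log2 difference -0.22, exact permutation p = 0.457, adjusted p = 0.710). Groups did not overlap for 20 of 231 ratios (8.66%), and 0 of 231 passed the exact permutation test after adjustment (20 at an unadjusted p under 0.05).

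As shares of mitochondrial tRNA counts, the parts varied more than their sum. This holds for shares only: on the CPM scale mt-tRNA-Tyr alone ran from 14585 to 26764 across the hearts. No other set of 3 mitochondrial tRNAs was examined for comparison. The 3 tRNAs together held 6.94%, 7.43%, 7.32% and 7.21% of mitochondrial tRNA counts in AAV9-DdCBE hearts, against 7.31%, 7.58%, 7.66% and 7.38% in AAV9-GFP hearts. Within that sum mt-tRNA-Asn made up 18.4% to 26.7% in AAV9-DdCBE hearts and 15.1% to 31.6% in AAV9-GFP hearts, mt-tRNA-Cys 13.4% to 26.2% in AAV9-DdCBE hearts and 18.5% to 25.5% in AAV9-GFP hearts, and mt-tRNA-Tyr 52.8% to 63.3% in AAV9-DdCBE hearts and 49.9% to 59.5% in AAV9-GFP hearts.

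**Figure D5:**
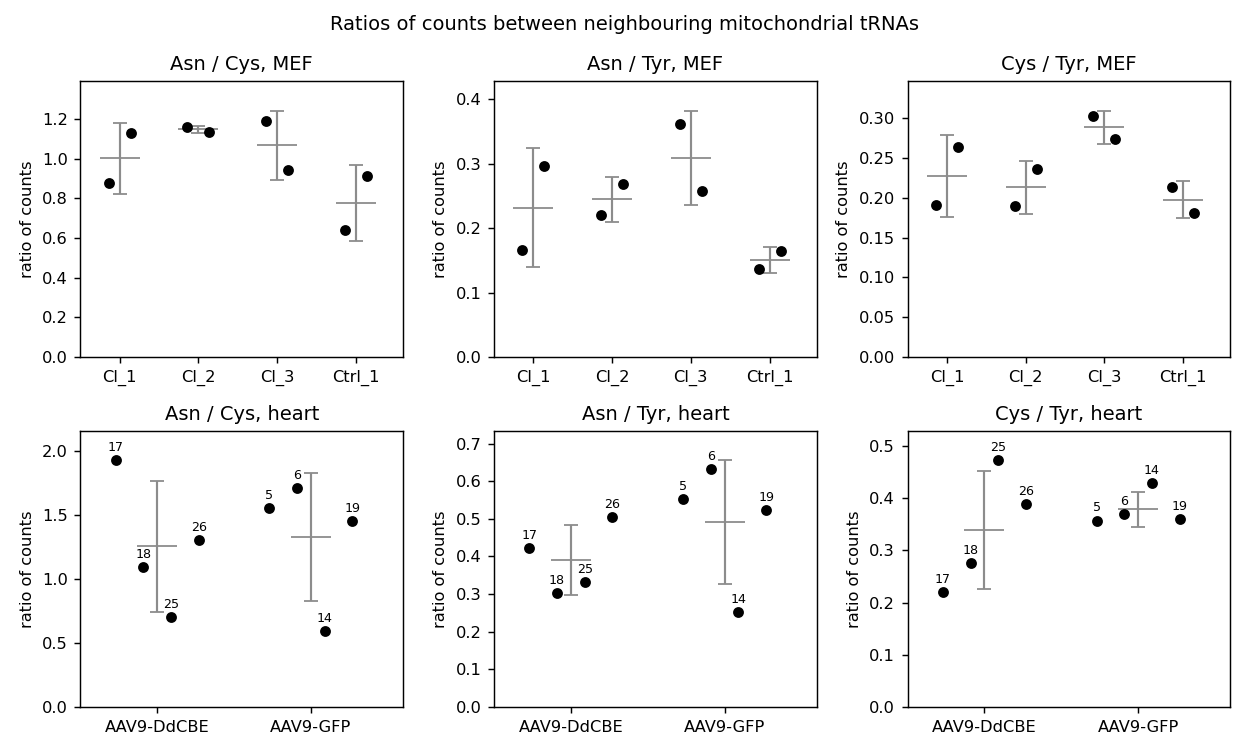
Ratios of counts between the members in MEF libraries by line (top row) and in hearts by treatment (bottom row, mouse number at each point); the grey bar is the mean and the error bar the SD of 2 libraries or 4 hearts. In MEFs Asn over Tyr is 0.167 to 0.361 in the Cl libraries, above 0.137 and 0.165 in MEF_Ctrl_1, and in hearts Asn over Cys spans 0.591 to 1.92 with mice 25 and 14 below 1.

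Of the ratios of the 3 members to mt-tRNA-Ala, none passed after adjustment and 1 did not overlap between the treatments, where 8.66% of all 231 ratios did not. As the smallest p of the permutation test is 0.0286 before adjustment over the 231 pairs, that miss decides little. mt-tRNA-Ala had a log2 difference of 1.31 in hearts (SE 0.39, adjusted p = 0.0866), and mt-tRNA-Trp one of -0.16 (SE 0.20, adjusted p = 0.597). The ratio of mt-tRNA-Asn to mt-tRNA-Ala was 1.71, 1.29, 1.46 and 4.27 in AAV9-DdCBE hearts, against 4.95, 4.44, 5.72 and 5.00 in AAV9-GFP hearts. Mouse 26, labelled 2X, lay just below the AAV9-GFP hearts, and the other AAV9-DdCBE hearts lay far below. The log2 ratio of Ala over Asn was 1.38 higher in AAV9-DdCBE hearts (exact permutation p = 0.0286, the smallest that 4 against 4 allows, adjusted p = 0.307). Ala over Cys was 1.32 higher (exact permutation p = 0.0857, adjusted p = 0.318) and Ala over Tyr 1.10 higher (exact permutation p = 0.0571, adjusted p = 0.307), and for both the groups overlapped. Mouse 14 had the highest ratios of Cys and of Tyr to Ala (9.67 and 22.6).

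The lists showed no called member in hearts. The 8 light-strand tRNAs had a median log2 difference of -0.08 and the other 14 one of 0.06, and the medians were 0.03 for queuosine, -0.02 for t6A and -0.06 for i6A, with 0 of 22 called. The nuclear counterparts did not pass either: the log2 difference was -0.07 for tRNA-Asn-GTT (SE 0.09, adjusted p = 0.934), 0.17 for tRNA-Cys-GCA (SE 0.11, adjusted p = 0.806) and -0.00 for tRNA-Tyr-GTA (SE 0.13, adjusted p = 0.974). Their means were 21875 ± 1809, 15048 ± 954 and 20014 ± 3618 CPM in AAV9-DdCBE hearts, against 22944 ± 1121, 13370 ± 1961 and 20077 ± 1529 CPM in AAV9-GFP hearts (SD, n = 4 each).

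Hearts and MEFs were set side by side only as shares, because each tissue has its own table and the tissue cannot be told apart from the table. mt-tRNA-Asn held 1.15% to 2.39% in the 8 hearts and 0.808% to 2.59% in the 8 MEF libraries, and mt-tRNA-Cys 0.929% to 1.95% in hearts and 1.15% to 2.17% in MEF libraries. Both ranges overlapped. mt-tRNA-Tyr held 3.78% to 4.70% in hearts and 5.76% to 7.73% in MEF libraries, without overlap. By count it ranked 10 to 15 among the 22 in hearts and 3 to 10 in MEFs. Of the 22 mitochondrial tRNAs 5 (22.7%) did not overlap between the tables, and of these mt-tRNA-Tyr was the 1 that was lower in hearts (4.55%). Other tRNAs had lower mean shares in hearts with ranges that overlapped. Among them were Gln (0.931% in hearts, 2.26% in MEFs) and Glu (2.22% in hearts, 4.66% in MEFs). Ranks order counts, which were not divided by length, and how well each tRNA is captured was not measured.

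The tRNAs whose log2 CPM ran most like each member's were named by Pearson's r over 8 libraries that share their scaling, as a description. In MEFs these were Gln (0.851) and Pro (0.655) for mt-tRNA-Asn, Pro (0.848) and Asn (0.655) for mt-tRNA-Cys, and Leu-TAG (0.922) and Ala (0.910) for mt-tRNA-Tyr. In hearts they were Arg (0.978) and Lys (0.973) for mt-tRNA-Asn, Trp (0.650) and Leu-TAG (0.488) for mt-tRNA-Cys, and Asp (0.983) and Gly (0.968) for mt-tRNA-Tyr. Between the members r was 0.655 for Asn and Cys, -0.181 for Asn and Tyr and 0.370 for Cys and Tyr in MEFs, and -0.444, 0.306 and 0.175 for the same pairs in hearts. These values depend on the scale. With log2 shares in place of log2 CPM, r in MEFs was 0.893 for Asn and Cys, 0.565 for Asn and Tyr and 0.522 for Cys and Tyr, and in hearts -0.504, -0.811 and 0.0482 for the same pairs, so that the sign for Asn and Tyr turned in both tissues. By share the values for mt-tRNA-Tyr in MEFs were -0.395 with Leu-TAG and -0.236 with Ala. No member had another member as its closest match in either tissue on either scale, but by share in MEFs the gaps were small. There mt-tRNA-Asn had Gln at 0.928 before Cys at 0.893, and mt-tRNA-Cys had Pro at 0.898 before Asn at 0.893. mt-tRNA-Tyr had Ser-TGA at 0.568 before Asn at 0.565. In hearts the closest by share were Arg (0.966) for mt-tRNA-Asn, Leu-TAG (0.890) for mt-tRNA-Cys and Asp (0.918) for mt-tRNA-Tyr.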

How the data were processed

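Raw read counts per tRNA transcript, as whole numbers, were deposited by the authors in 1 table for MEFs and 1 for hearts. The RNA was kept in mild acid during extraction, then oxidised and treated for beta-elimination before mim-tRNAseq libraries were made, per the labels' protocols. The submitters' processing notes name cutadapt 3.5 and the build mm39; aligner and counter: not given in the sources used here. All 16 columns matched sample titles. Members and lists were chosen with earlier results of these data known.

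Differential tests on counts used edgeR 4.0.16 in R 4.3.3 (TMM, filterByExpr by group with a minimum count of 10 and a minimum total of 15, quasi-likelihood test, Benjamini-Hochberg adjustment, threshold 0.05), leaving 201 transcripts in MEFs and 180 in hearts; the SE is the size of the log2 change divided by the square root of F. A second fit held the 22 mitochondrial rows only. The fit to all transcripts was first run, for the Cl average and for the heart treatments, on simulated counts with known changes in random transcripts. That simulation held no other differences between lines and no set shift of the mitochondrial fraction. The second fit was not simulated. For shares and ratios the exact permutation test was two-sided (Python 3.11.15). DESeq2 1.42.0 and other scalings were alternatives. The 16 pairs of replicates within groups differed beyond counting noise (chi-square over its degrees of freedom, 93.9 to 1781). Deviations of same-numbered MEF libraries correlated at 0.0698 to 0.248, and 2 of the 6 pairs were under 0.1, so numbers were not taken as pairs. Named tRNAs were the 3 members, Ala and Trp as the rest of the gene run, the 2 tRNAs most like each member, nuclear counterparts and lists by modification and strand. The order of genes was read from RefSeq's GRCm38.p6 gene table, with no coordinates taken from it. The tables hold tRNAs only, so cell type markers could not be checked, and tRNA sequences were not used here.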

Additional observations from a re-analysis of the deposited data

Results flagged for a closer look

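In AAV9-GFP hearts the share of mt-tRNA-Cys in mitochondrial tRNA counts was 1.95% in mouse 14, far from the other 3 hearts of the group, which lay between 1.37% and 1.41%. The gap to the nearest heart was 0.922 of the group's range, above the 95% critical value of Dixon's test for 4 samples. This was 1 of 18 groups of values examined, and chance alone places about 1 in 20 independent groups beyond that value. These groups were not independent, because they hold CPM, shares and ratios of the same 3 tRNAs in the same hearts. Mouse 14 was the most distant heart in every group of AAV9-GFP values. In the other AAV9-GFP groups its gap ran from 0.149 of the range (CPM of mt-tRNA-Tyr) to 0.823 (share of mt-tRNA-Tyr), none above the critical value. Without mouse 14 the difference in mean share between AAV9-DdCBE and AAV9-GFP hearts was 0.0138 percentage points, against -0.126 with it, and neither passed the exact permutation test (adjusted p = 0.914 and 0.761).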

How the results depend on the processing

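In MEFs the scaling changed the direction of several results. Scaling on the other mitochondrial tRNA counts moved the median of all transcripts by 0.62 on the log2 scale averaged over the Cl lines. It gave 0.998 for mt-tRNA-Asn (now past the threshold), 0.52 for mt-tRNA-Cys and 0.24 for mt-tRNA-Tyr. By line it gave 0.26 for Cys and 0.076 for Tyr in MEF_Cl_1, 0.46 and 0.35 in MEF_Cl_2, and 0.29 for Tyr in MEF_Cl_3. In 10X hearts Asn was -0.26, and in all hearts 13 transcripts passed. The fit to mitochondrial rows alone gave 0.93, 0.45 and 0.17 for Asn, Cys and Tyr and 9 calls. By line it gave 0.21 for Cys and 0.035 for Tyr in MEF_Cl_1, 0.37 and 0.26 in MEF_Cl_2, and 0.21 for Tyr in MEF_Cl_3, and -0.17 for Asn in 10X hearts. Library totals turned Cys to 0.0041 averaged over the Cl lines and called 14 transcripts in hearts.

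Without a filter on low counts the Cl average of Asn passed (0.40), and small differences in hearts changed sign: Asn 0.022 and Cys 0.014, with Cys 0.0073 in 10X hearts. DESeq2 gave 0.015 for Asn and 0.0038 for Cys in hearts, with 27 calls. Scaling on nuclear counts gave 0.19 for Asn and 0.13 for Cys in hearts and 0.21 for Cys in 10X hearts. In 5X hearts alone, 1 AAV9-DdCBE heart against 2 AAV9-GFP hearts, Asn was -0.80 and Cys 0.41, neither past the threshold. Summing per anticodon gave Cys 0.029 and Tyr -0.26 (no longer called) over the Cl lines, with 30 calls, and in hearts Asn 0.16, Cys 0.11 and, in 10X hearts, Cys 0.16. Adding up the passages of each line left Tyr at -0.39 without a call and 9 calls in all; in mitochondrial rows Asn was 0.98 and Cys 0.53, neither past the threshold, with 0 calls. The cause of these changes was not tested.

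Leaving out 1 library at a time gave, averaged over the Cl lines, 0.22 to 0.53 for Asn, -0.24 to 0.044 for Cys, and 59 to 101 calls, lowest without the first MEF_Ctrl_1 library. Tyr kept its call in all 8 of these fits (-0.41 to -0.36). In mitochondrial rows the ranges were 0.77 to 1.19 for Asn, 0.42 to 0.55 for Cys and 5 to 10 calls. By line they were -0.37 to 0.57 for Asn and -0.57 to 0.0014 for Cys in MEF_Cl_1, and -0.38 to 0.040 for Cys in MEF_Cl_2. In hearts they were -0.40 to 0.16 for Asn, -0.10 to 0.050 for Cys, -0.054 to 0.40 for Tyr, 0 to 31 calls (19 without mouse 25 and 31 without mouse 26), -0.51 to 0.51 for Asn in 10X hearts, -0.41 to 0.19 for the log2 ratio of Asn to Cys, and -0.296 to 0.0337 percentage points for the share of Cys. In mitochondrial rows of hearts they were -0.26 to 0.046 for Cys and 0 to 4 calls.

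With the replicate number as a block the average of the Cl lines gave 0.39 for Asn, -0.12 for Cys and -0.39 for Tyr and 105 calls, and no member's call changed. Of 498 alternative values of single results, 405 kept direction and side of the threshold, 51 changed sign, 23 lost and 19 gained a call. Of 132 counts of calls, 39 moved by over 1.5 times. Counting error of a member's share was at most 7.32% of its value, so depth limited these comparisons less than the spread between libraries.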
